A study of Mus musculus with 6 samples.

Results

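The serpin genes, a family of protease inhibitors and their relatives, were taken as all gene names of the array that begin with Serpin, which gave 54 of 27962 gene names and 73 of 41174 probes. Their RNA was measured in mouse embryonic stem (ES) cells, pluripotent cells of the early embryo, of an F1 cross of the strains 129 and C57BL/6. The cells received an siRNA against BRG1 (3 arrays) or a scrambled control siRNA (3 arrays) for 48 h, and both groups were otherwise described alike. BRG1, the product of Smarca4, is the ATPase of the SWI/SNF chromatin remodelling complexes. An siRNA lowers its target and does not delete it, and the labels do not say that the replicates were separate cultures. The p-values therefore rest on array-to-array spread, part or all of which may be technical.

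Serpins are a family of proteins with a shared fold, most of which inhibit serine proteases by a suicide mechanism: the protease cuts an exposed loop, the loop inserts into the body of the serpin and the protease is left trapped and distorted. Family members are sorted into clades by sequence, marked by the letter in the gene name. Clade A serpins are mostly secreted plasma proteins made by the liver, clade B serpins lack a classical signal peptide and work largely inside cells, and the smaller clades include antithrombin (C), heparin cofactor II (D), protease nexin 1 (E), PEDF and antiplasmin (F), the C1 inhibitor (G), a collagen chaperone (H) and the neuroserpins (I). Some members, among them the collagen chaperone and PEDF, do not inhibit proteases.

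The signal of a probe is given as the processed intensity of each array, which the scanner software had corrected for background. Changes are log2 differences, BRG1 siRNA minus control siRNA, after each array was scaled to its own 75th percentile (1961 to 2333 intensity units over the 6 arrays). A probe entered the test if the software flagged it as well above background on all arrays of either group, and a change passed at a limma adjusted p under 0.05 over all 26258 tested probes. All 3 Smarca4 probes fell, to 54.7%, 66.2% and 65.8% of the control signal (adjusted p = 0.00181, 0.00862 and 0.00455). The 3 control arrays and BRG1 siRNA replicate 1 shared a slide, and BRG1 siRNA replicates 2 and 3 lay on another, so slide and treatment overlap in part. Because the other slide held BRG1 siRNA only, every slide-blocked change given here is that of BRG1 siRNA replicate 1 alone against the 3 controls, with replicates 2 and 3 adding only to the estimate of the spread. It is not a replicated check, and with slide 1 fitted alone limma called no probe (7716 had an unadjusted p under 0.05). With slide as a block 1 of the 3 Smarca4 probes passed (adjusted p = 0.0289, 0.0785 and 0.0506). In bulk RNA, fewer cells of a type and less RNA per cell cannot be told apart.

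Of the 73 serpin probes, 21 were well above background on all 6 arrays, 21 on some arrays and 31 on none. The BRG1 siRNA arrays detected 26, 22 and 34 serpin probes and the control arrays 35, 25 and 28, or 30.1% to 47.9% of the family, while at least 60.4% of all probes were detected on each array. Detection varied as much within each group as between the groups. In clade A, 3 of 25 probes were above background on all 6 arrays, and in clade B 10 of 35. The single probes of Serping1 and Serpinh1 were detected on all 6 arrays, and the probe of Serpind1, which encodes heparin cofactor II, on none.

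**Figure D1:**
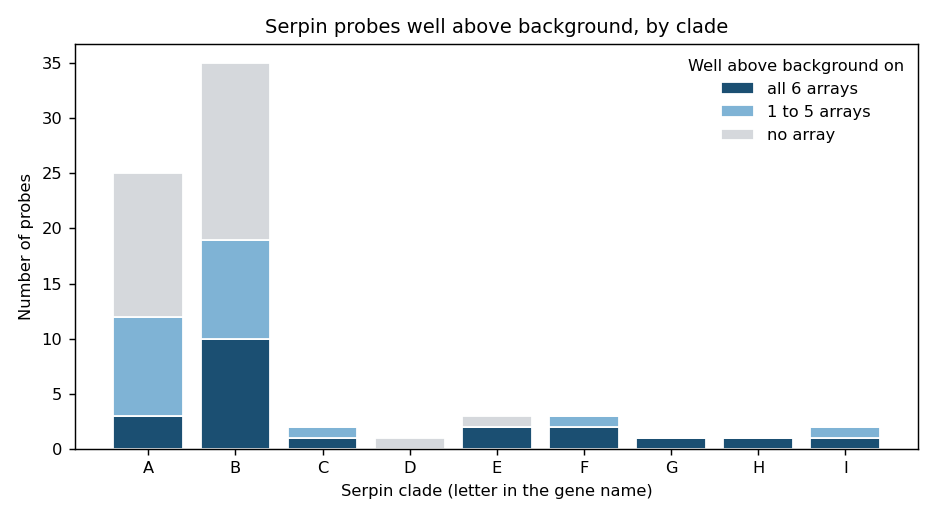
Number of serpin probes (y axis) by clade (x axis), split by whether a probe was well above background on all 6 arrays, on 1 to 5 arrays or on none. Clades A and B hold 25 and 35 probes, of which 13 and 16 were detected on no array.

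The test covered 24 probes of 22 serpin genes. Serpinf1, Serpinh1, Serpinb2, Serpinb8, Serpinb1a, Serpine2 and Serpinb6a were among those lower with BRG1 siRNA, and Serping1 was higher. By probe, 10 of 24 fell (41.7%) and 1 rose (4.17%), where 11% of all tested probes fell and 8.60% rose, and 19.6% passed in either direction. By gene, 8 of 22 fell and 1 rose, since Serpinf1 and Serpinb2 each had 2 probes that fell. Over all gene names, by the brightest probe of each, 12.3% of 17758 fell and 9.09% rose. The serpin falls were between 1.15-fold and 1.88-fold. The median change over the tested serpin probes was -0.29, against -0.03 over all tested probes. All 11 called probes separated the groups without overlap, and together with Serpina3m they made 12 of 24 probes (50%), against 41.6% of all tested probes. With slide as a block, where the change rests on 1 BRG1 siRNA array, 6 of the 10 falls and the rise were past the threshold. The other 4 called probes had the same sign without passing. Of all 26258 tested probes, 779 fell and 488 rose in that fit. The members and the gene lists below were chosen with earlier results of these data known, and the counts are descriptions of the family.

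**Figure D2:**
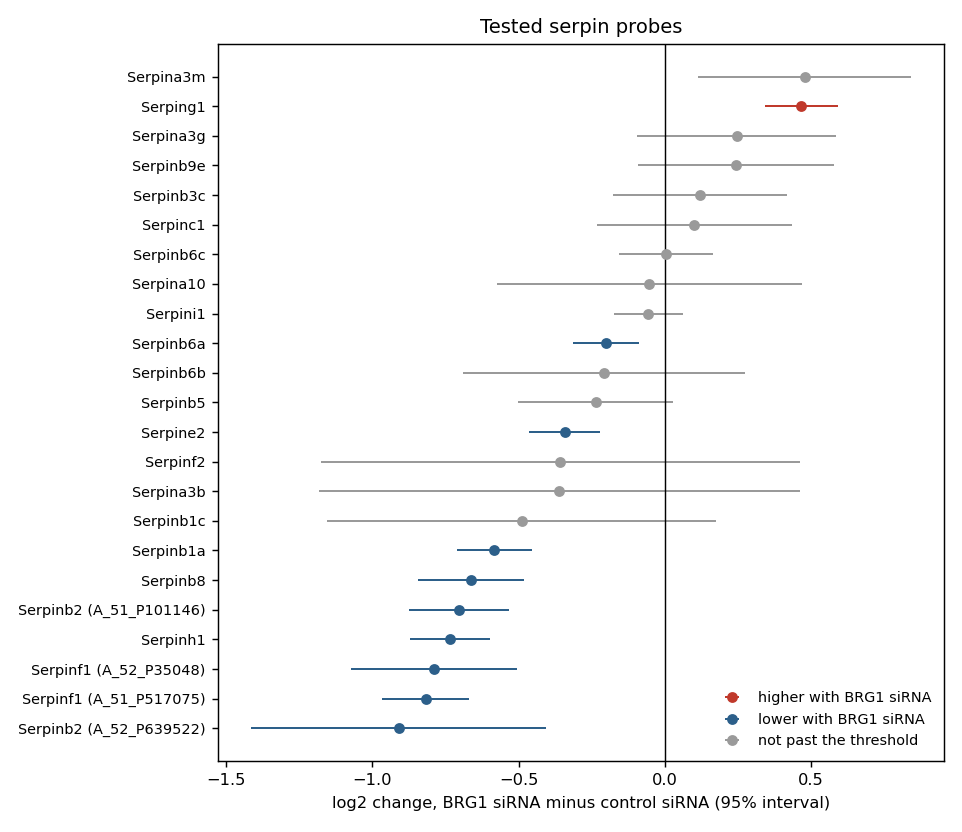
The log2 change with its 95% interval (x axis, BRG1 siRNA minus control siRNA) for the tested serpin probes described here (y axis); blue marks probes lower with BRG1 siRNA, red the probe that was higher, and grey those not past the threshold. The lower probes lie between -0.91 and -0.20 and Serping1 at 0.47.

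The probes on which the main results rest are shown here, since each value is the signal of 1 such 60-base oligo. The paired probes of Serpinf1 share no stretch, while those of Serpinb2 overlap by 20 bases, which are printed in capitals. All are given 5′ to 3′ as on the array, with mm7 coordinates from the file headers' build; no exon annotation of that build was used, and the coordinates of Serping1 span more than the probe's length.
Serpinf1, chr11:75491640-75491699, minus strand: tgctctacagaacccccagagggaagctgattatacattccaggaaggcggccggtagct
Serpinf1, chr11:75497235-75497294, minus strand: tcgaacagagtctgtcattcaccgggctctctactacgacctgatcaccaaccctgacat
Serpinh1, chr7:95376252-95376313, minus strand: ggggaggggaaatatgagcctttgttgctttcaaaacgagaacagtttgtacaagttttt
Serpinb2, chr1:107424897-107424956, plus strand: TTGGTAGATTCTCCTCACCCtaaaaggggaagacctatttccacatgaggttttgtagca
Serpinb2, chr1:107424857-107424916, plus strand: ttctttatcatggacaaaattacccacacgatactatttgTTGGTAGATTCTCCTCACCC
Serping1, chr2:84609527-84611033, minus strand: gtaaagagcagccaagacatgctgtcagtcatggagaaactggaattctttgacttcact

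The members of clades F and H that do not inhibit proteases both fell. Serpinf1 encodes PEDF, a secreted factor known for blocking blood vessel growth and for supporting neurons. Its probe at chr11:75491640-75491699 had signals of 687, 704 and 718 on BRG1 siRNA replicates 1, 2 and 3, against 1152, 1410 and 1286 on control replicates 1, 2 and 3. The lowest control array was well above the highest BRG1 siRNA array. The change was -0.82 ± 0.06 (SE), a 1.76-fold fall (adjusted p = 0.00199), and -0.92 with slide as a block (adjusted p = 0.0244). Its second, dimmer probe had 121, 113 and 141 on the BRG1 siRNA arrays against 223, 227 and 217 on the controls. That probe changed by -0.79 ± 0.11 (SE, adjusted p = 0.00961). Both probes thus fell by a like amount in the main analysis, although with slide as a block the second missed the threshold (-0.90, adjusted p = 0.0556). With normexp background correction and 75th percentile scaling, the first changed by -0.78 and the second by -0.47.

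Serpinh1 encodes HSP47, a chaperone of the endoplasmic reticulum that binds procollagen while it folds. Its signals were 18292, 16469.8 and 16984 on the BRG1 siRNA arrays, against 27566, 30891 and 30484 on the controls. Each group was tight, and the groups were far apart. The change of -0.74 ± 0.06 (SE) corresponds to 60.1% of control (adjusted p = 0.00207), with -0.72 and an adjusted p of 0.0338 in the slide-blocked fit. Serpinf2, which encodes the plasmin inhibitor antiplasmin and also lies on chromosome 11, had 71.6, 55.4 and 89.7 on the BRG1 siRNA arrays and 136, 75.4 and 79.8 on the controls. These overlapped, 2 of 3 BRG1 siRNA arrays were above background, and the change of -0.36 had a 95% interval of -1.17 to 0.46 (adjusted p = 0.488).

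In clade E, Serpine2, which encodes protease nexin 1, an inhibitor of thrombin and the plasminogen activators, had 860.3, 849.8 and 775 on the BRG1 siRNA arrays against 972, 1209 and 1079.7 on the controls. It fell by a smaller amount, -0.34 ± 0.05 (SE, adjusted p = 0.00912). It no longer passed in the slide-blocked fit (-0.35, adjusted p = 0.0684), with spike-in scaling (-0.14, adjusted p = 0.343), with median scaling and without control replicate 3. A probe named AK046232, outside the family by its name but described on the array as a Serpine2 product, also fell (-0.43 ± 0.07 SE, adjusted p = 0.0111; 0.0691 in the slide-blocked fit); it was chosen after its values were seen.

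**Figure D3:**
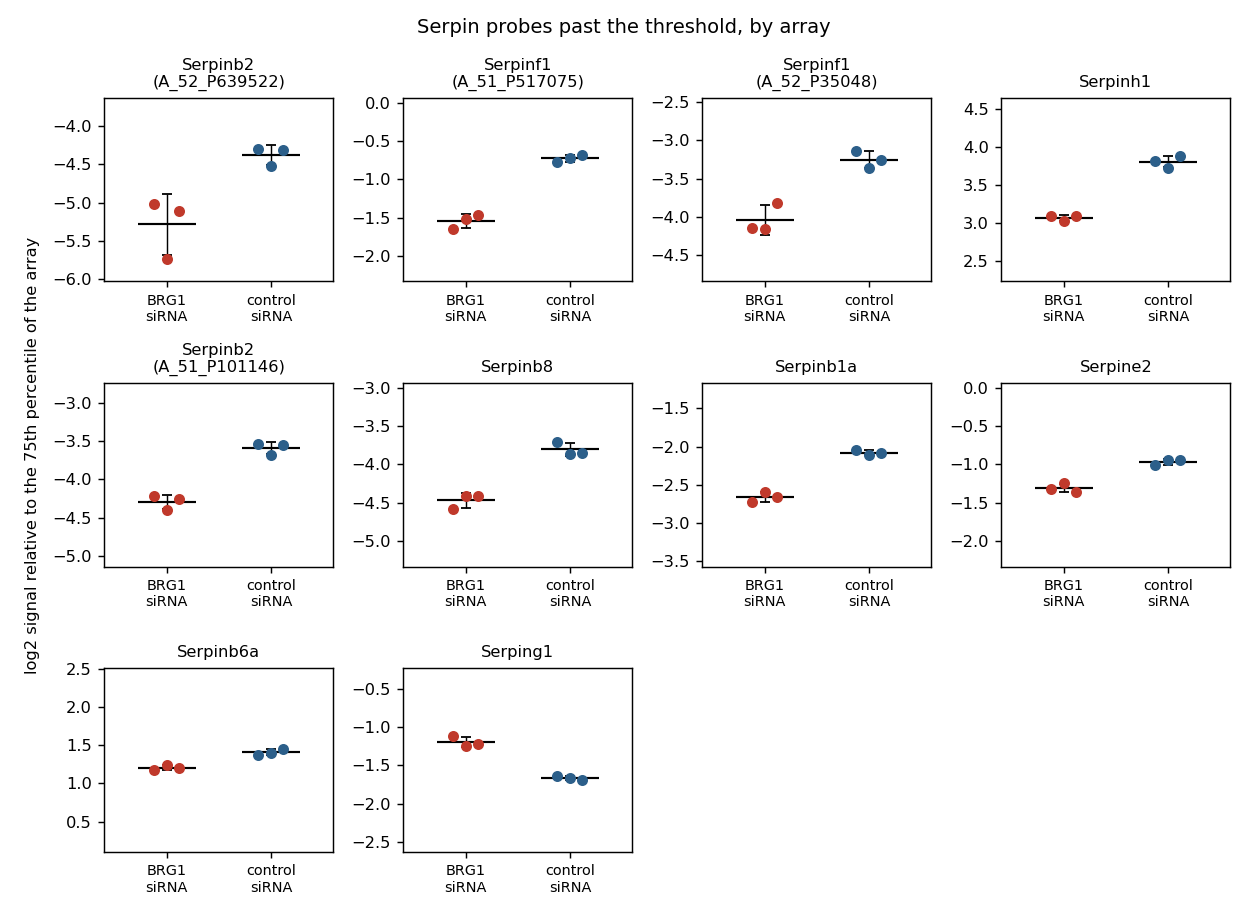
The log2 scaled signal (y axis, 0 is the array's 75th percentile) for the called serpin probes described here, with 1 point per array, the mean as a line and the SD as error bars; BRG1 siRNA is left and control siRNA right, and each panel spans the same range of log2 units. The groups do not overlap in any panel, and the shift is largest for the second Serpinb2 probe and smallest for Serpinb6a.

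In clade B, 11 probes of 10 genes were tested; 5 probes of 4 genes fell and none rose, and 6 did not pass. These genes lie in groups on chromosomes 1 and 13. On chromosome 1, 3 of 5 tested probes fell. Serpinb2 encodes PAI-2, an inhibitor of urokinase that stays largely inside the cell. Its probe at chr1:107424897-107424956 had 115, 96.0 and 104 on the BRG1 siRNA arrays against 169, 182 and 177 on the controls. The groups were clearly apart, with a change of -0.70 ± 0.07 (SE, adjusted p = 0.00371; -0.63 and adjusted p = 0.0453 in the slide-blocked fit). The overlapping second probe was dimmer, with 66.5, 37.8 and 57.7 on the BRG1 siRNA arrays, 2 of them well above background, against 99.9, 101 and 104 on the controls. Its change of -0.91 ± 0.20 (SE, adjusted p = 0.0321) was -0.39 with normexp background correction and 75th percentile scaling. It did not pass in the slide-blocked fit, with no filter on dim probes and without BRG1 siRNA replicate 1 or any single control replicate.

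Serpinb8, whose human counterpart inhibits the processing protease furin, had 89.7, 94.9 and 93.6 on the BRG1 siRNA arrays against 151, 161 and 143 on the controls. The values within each group were close together and those of the groups did not meet. The change was -0.66 ± 0.07 (SE), a 1.58-fold fall (adjusted p = 0.00485; -0.78 and adjusted p = 0.0318 in the slide-blocked fit). With normexp background correction and 75th percentile scaling it was -0.47. Serpinb5, which encodes the non-inhibitory maspin, had signals on the BRG1 siRNA arrays that overlapped those of the controls, and its change of -0.24 did not pass (95% interval -0.50 to 0.03, adjusted p = 0.18), though it passed without BRG1 siRNA replicate 1. Serpinb3c, of the group related to the squamous cell carcinoma antigens, changed by 0.12 (-0.18 to 0.42, adjusted p = 0.524).

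On chromosome 13, 2 of 6 tested probes fell. Serpinb1a encodes a mouse form of the leukocyte elastase inhibitor. Its signals were 324, 336 and 314 on the BRG1 siRNA arrays against 476, 543 and 488 on the controls. Both groups were narrow, and the change was -0.58 ± 0.05 (SE), to 66.8% of control (adjusted p = 0.00299; -0.65 and adjusted p = 0.0298 in the slide-blocked fit). Its relative Serpinb1c had 66.9, 104 and 119 on the BRG1 siRNA arrays against 147, 124 and 138 on the controls, a change of -0.49 that did not pass (-1.15 to 0.18, adjusted p = 0.255). Serpinb6a, whose human counterpart inhibits cathepsin G, had 4843, 4795 and 4562 on the BRG1 siRNA arrays against 5064, 6162 and 5664 on the controls. Its change was the smallest called, -0.20 ± 0.05 (SE, adjusted p = 0.033). It did not pass with slide or replicate number as a block, with median scaling, with spike-in scaling (-0.0023), with no filter on dim probes or when any 1 of the 6 arrays was left out. Serpinb6c, its neighbour in name, had 1173, 1127 and 1147 on the BRG1 siRNA arrays against 1145, 1199 and 1205 on the controls, and its 95% interval ran from -0.16 to 0.17. Serpinb6b changed by -0.21 (-0.69 to 0.28) and Serpinb9e, of the granzyme B inhibitor group, by 0.24 (-0.09 to 0.58), neither of which passed.

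Serping1, the only member of clade G, encodes the C1 inhibitor, which blocks the first proteases of the complement cascade and the contact system. It moved the other way from the falling members, with 989, 853 and 848 on the BRG1 siRNA arrays against 629.7, 735 and 643 on the controls. Every BRG1 siRNA array lay above every control array. The rise was 0.47 ± 0.05 (SE), or 1.38-fold (adjusted p = 0.00455; 0.54 and adjusted p = 0.0304 in the slide-blocked fit). Serping1 stayed higher under every scaling tried, from 0.40 with normexp correction to 0.67 with spike-in scaling.

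No clade A member passed the test. Serpina3m, of the mouse antichymotrypsin-like cluster on chromosome 12, came closest, with 654, 576 and 441 on the BRG1 siRNA arrays against 421, 394 and 407 on the controls. The groups did not overlap, yet the BRG1 siRNA arrays were widely spread, and the change of 0.48 ± 0.15 (SE) had an adjusted p of 0.0749. It passed with spike-in scaling (0.68, adjusted p = 0.0322), with eBayes using trend and robust settings, and without BRG1 siRNA replicate 3. Serpina3g, which encodes an inhibitor of cathepsins, changed by 0.25 (95% interval -0.10 to 0.59), Serpina3b by -0.36 (-1.18 to 0.46), with 1 of 3 BRG1 siRNA arrays above background, and Serpina10, the protein Z-dependent inhibitor, by -0.05 (-0.57 to 0.47). In the remaining clades, Serpinc1, which encodes antithrombin, changed by 0.10 (-0.23 to 0.43), and Serpini1, which encodes neuroserpin, by -0.06 (-0.17 to 0.06). The interval of Serpini1 was narrow, since its signals of 1770.5, 1801 and 1691 on BRG1 siRNA arrays and 1777, 2083 and 1799 on controls varied little after scaling.

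The other 49 probes did not pass the filter on dim probes and were not tested, and 32 genes had no tested probe. Of these genes, 18 were above background on no array: Serpina11, Serpina1b, Serpina1f, Serpina3a, Serpina3f, Serpina3k, Serpina3n, Serpina6, Serpinb10, Serpinb11, Serpinb13, Serpinb1b, Serpinb3d, Serpinb7, Serpinb9b, Serpinb9c, Serpinb9d and Serpind1. They include the α1-antitrypsin relatives Serpina1b and Serpina1f and the corticosteroid carrier Serpina6. A further 14 genes were detected on a few arrays only: Serpina12, Serpina1d, Serpina1e, Serpina3c, Serpina4-ps1, Serpina5, Serpina7, Serpina9, Serpinb12, Serpinb3a, Serpinb3b, Serpinb9, Serpinb9g and Serpini2. Serpina10, Serpinb1c and Serpinb3c, each tested by 1 probe, had a second probe that was above background on no array, so their 2 probes differed in detection. Among the 18 untested probes with partial detection, 6 were detected on more BRG1 siRNA arrays, 8 on more control arrays and 4 on equal numbers. No serpin was well above background on all arrays of one group and on none of the other.

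How many serpin probes passed varied with the scaling. With spike-in scaling, which moved the median of all tested probes to 0.17, 8 of the 24 tested serpin probes passed as lower and 4 as higher. The added rises were Serpina3g, Serpina3m and Serpinb9e. Of all 26258 tested probes, 722 passed as lower and 4516 as higher with this scaling. With median scaling the serpin counts were 8 and 1, Serpinb6a and Serpine2 being lost, against 1005 and 1026 of all probes. With quantile normalization they were 10 and 2, against 2668 and 2684. Normexp correction gave 10 and 1 under either normalization. The counts of all probes were then 2948 and 2316 with 75th percentile scaling, and 2967 and 2935 with quantile normalization. Normexp reduced the change of dim probes: with 75th percentile scaling, Serpinb2 was at -0.43 (first probe), Serpinb8 at -0.47 and the second Serpinf1 probe at -0.47, all still called. No called probe changed sign under any of these scalings.

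**Figure D4:**
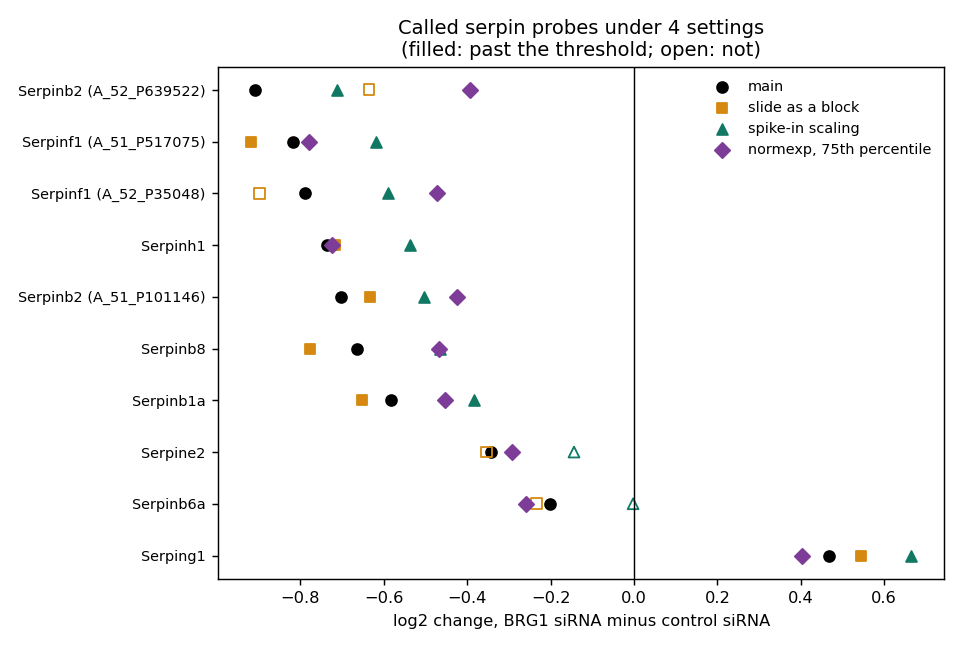
The log2 change (x axis, BRG1 siRNA minus control siRNA) of the called serpin probes described here (y axis) in the main analysis, with slide as a block, with spike-in scaling and with normexp background correction; filled symbols passed the threshold and open ones did not. Serpinb6a is the probe closest to 0 with spike-in scaling, and Serping1 is right of 0 throughout.

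Proteases that serpins act on, their receptors and other inhibitors were examined by the brightest probe of each gene, among which 12.3% of 17758 genes fell and 9.09% rose, with a median of -0.04. Of 22 tested genes of plasminogen activation and serpin target proteases, 7 fell and 1 rose, with a median of -0.13. Plat, the tissue plasminogen activator, fell 1.40-fold (-0.49 ± 0.06 SE, adjusted p = 0.0067), while Plau, the urokinase gene, changed by -0.28 and its receptor gene Plaur by 0.11, and neither passed (adjusted p = 0.276 and 0.24). Tmprss2, a membrane serine protease, fell 2.14-fold (adjusted p = 0.0117). Its probe was dim, with 46.4, 61.7 and 57.4 on the BRG1 siRNA arrays against 124, 111 and 128 on the controls. It was well above background on only 4 arrays, so the size of this fall is uncertain. Ctsg, cathepsin G, and Klk1, a tissue kallikrein, each fell 1.69-fold (adjusted p = 0.0348 and 0.00181). Ctsl, the cysteine protease cathepsin L, fell by 0.59 on the log2 scale (adjusted p = 0.00219). C1s, a protease that the C1 inhibitor blocks, fell 1.43-fold (adjusted p = 0.00255), and Prss8, prostasin, rose 1.32-fold (adjusted p = 0.00876). When slide was blocked, 5 genes of this list fell and none rose, where 779 of all 26258 tested probes fell and 488 rose. Plat, Klk1, Tmprss2, Ctsl and C1s passed, while Ctsg and Prss8 did not (adjusted p = 0.0769 and 0.0693).

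Among cofactors and uptake receptors, 4 of 11 fell and 1 rose (median -0.10; 1 and 0 in the slide-blocked fit). Vldlr and Lrp8, lipoprotein receptors that also bind reelin, fell 1.59-fold and 1.49-fold, and Sdc4, a heparan sulfate proteoglycan, rose 1.28-fold; none of these 3 passed when slide was blocked (adjusted p = 0.0762, 0.123 and 0.174). Of 19 other protease inhibitors, 4 fell and 1 rose (median -0.16), and none passed with slide as a block. The metalloprotease inhibitors Timp1 and Timp3 went opposite ways, with log2 changes of 0.35 and -0.32, while Reck and Wfdc2 were 1.23-fold and 1.17-fold lower. Of 21 genes for collagen chains and collagen folding, the clients and partners of HSP47, 3 fell and 3 rose (median 0.03; 1 and 0 in the slide-blocked fit). Col3a1 fell 1.66-fold, Fkbp10, a collagen prolyl isomerase, 1.36-fold and Col1a1 1.28-fold, and Crtap, part of the prolyl 3-hydroxylase complex, rose 1.26-fold. Of these, Col3a1 passed when slide was blocked (adjusted p = 0.0473), and Fkbp10, Col1a1 and Crtap did not (adjusted p = 0.0534, 0.098 and 0.0762).

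**Figure D5:**
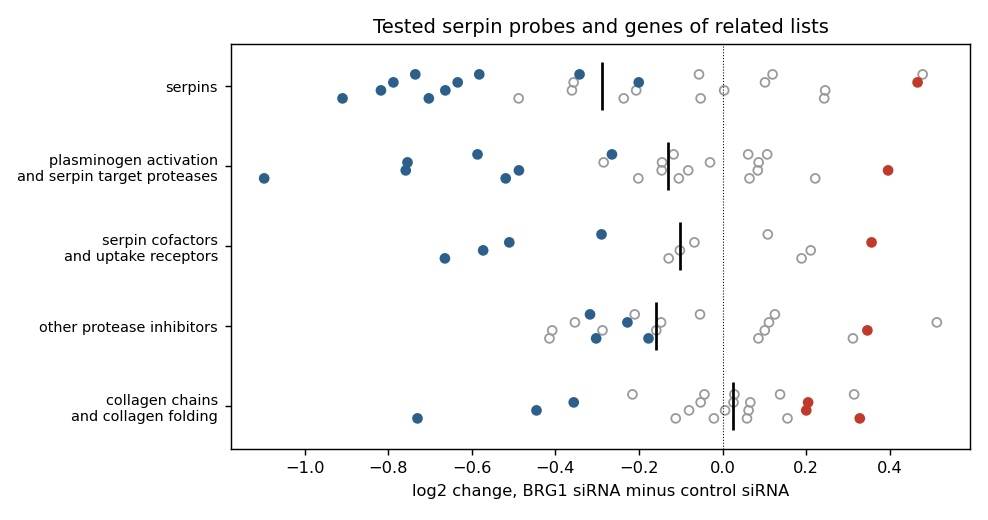
The log2 change (x axis, BRG1 siRNA minus control siRNA) of each tested serpin probe and of each tested gene in 4 related lists (y axis); filled blue and red points passed as lower and higher, open points did not pass, and the bar is the median. The serpin median over probes lies at -0.29, and those of the lists, with 1 probe per gene, between -0.16 and 0.03. With 1 probe per gene name the serpin median was -0.22.

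Markers of other cells were measured beside these changes, because Serpinf1 and Serpinh1 are also known from fibroblasts and clade A from liver. By the brightest probe of each gene, as used for these markers, 12.3% of 17758 genes fell and 9.09% rose. Of 7 tested fibroblast markers 4 fell (Thy1, Col3a1, Col1a1 and Twist2) and none rose, and Fap was above background on no array; in the slide-blocked fit Thy1 and Col3a1 passed, and Col1a1 and Twist2 did not (adjusted p = 0.098 and 0.0941). Col1a2, another marker of this list, did not pass (0.006, adjusted p = 0.98). Summed over the 9 fibroblast markers, the level was 5.95 to 6.73 times the 75th percentile on BRG1 siRNA arrays and 7.75 to 8.30 on controls. Of 7 tested ES cell markers 1 fell (Pou5f1), 2 rose (Nanog and Klf4) and the rest did not pass. The summed level of the ES cell markers was 213 to 224 on BRG1 siRNA arrays and 209.8 to 224 on controls in the same units. Pou5f1, Nanog and Klf4 did not pass in the slide-blocked fit (adjusted p = 0.158, 0.0883 and 0.104). Visceral or parietal endoderm markers had 3 falls of 9 and a sum of 12.9 to 15.8 with BRG1 siRNA and 12.5 to 15.3 in controls, with Afp and Apoa1 above background on no array. Sparc, which did not pass (0.09), made up most of that sum, and none of the 3 falls passed when slide was blocked. Trophoblast markers had 3 falls and 1 rise of 6, summing to 80.2 to 84.5 with BRG1 siRNA and 70.1 to 81.3 in controls (Elf5 on no array), and all 4 passed when slide was blocked. Krt8 and Krt18, which did not pass (0.11 and 0.15), made up nearly all of the trophoblast sum, while Cdx2, Krt7 and Eomes fell by 0.95, 0.79 and 0.66 on the log2 scale and Hand1 rose by 0.79. Blood and immune markers had 1 rise of 6, summing to 0.820 to 0.928 with BRG1 siRNA and 0.704 to 0.892 in controls (Emr1 on no array); that rise, of Cd68, did not pass when slide was blocked (adjusted p = 0.0567). Liver markers had 1 fall of 4, Ahsg, which also passed when slide was blocked, summing to 0.356 to 0.436 with BRG1 siRNA and 0.618 to 0.839 in controls. The part of other cells in the serpin changes was not tested.

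The start regions of Serpinb2 and Serpinb8, which lie in the same group on chromosome 1 and both fell, are shown because each holds the letters of an AP-1 motif. The RefSeq promoter table of GRCm38.p6 had entries for 6 of the 9 called genes, with 8 start sites, and the 250 bases before each were searched on both strands for the AP-1 motif, spelled TGANTCA, for the start-site motif of the TBP protein, spelled TATAAA, for the Sp1 motif, spelled GGGCGG, and for the heat shock element, spelled GAANNTTC. These motifs do not overlap one another in the windows printed. The 2 Serpinb2 windows overlap and hold the same AP-1 and TATAAA letters, so each such site is counted in both. Counted by window, TGANTCA stood in 3 of 8, both Serpinb2 starts and Serpinb8, and in 6.7% of all 32851 promoters. TATAAA stood in 2 of 8, both of Serpinb2, and in 12.4% of all, GGGCGG in 3 of 8 and in 32.7%, and GAANNTTC in 0 of 8 and in 6.7%. Capitals mark the motif letters, and the matches describe these windows only.
Serpinb2, chr1:107511173-107511422, plus strand: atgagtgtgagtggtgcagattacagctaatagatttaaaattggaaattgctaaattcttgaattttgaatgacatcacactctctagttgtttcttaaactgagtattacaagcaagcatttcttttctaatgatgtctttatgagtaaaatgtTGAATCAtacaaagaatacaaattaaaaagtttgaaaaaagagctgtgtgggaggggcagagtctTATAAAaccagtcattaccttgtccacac
Serpinb8, chr1:107589756-107590005, plus strand: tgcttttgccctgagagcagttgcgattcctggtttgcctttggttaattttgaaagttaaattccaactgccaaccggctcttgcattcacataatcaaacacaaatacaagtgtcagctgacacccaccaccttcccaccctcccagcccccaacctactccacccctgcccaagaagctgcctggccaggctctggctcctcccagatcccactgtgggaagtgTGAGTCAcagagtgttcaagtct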

How the data were processed

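RNA of 3 BRG1 siRNA and 3 control siRNA samples was hybridised to single-colour Agilent arrays (design 014868), from 500 ng of total RNA per the labels' protocols. The deposited intensity values were made by the authors with Agilent Feature Extraction, 9.5.3.1 per the file headers and 9.5 per the submitters' processing notes; the processed signal was background-subtracted and detrended within each array and not normalized between arrays. The deposited value table equalled it (largest difference 0). Probe coordinates are in mm7, per the file headers.

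From these, log2 signal minus each array's 75th percentile was computed over non-control spots. Outlier spots were left out (387 spots on at least 1 array, 0 of them serpin spots), spots of a probe were averaged, and limma 3.58.1 (lmFit and eBayes, two-sided, Benjamini-Hochberg) in R 4.3.3 was fitted to all 26258 tested probes and tested on simulated data. No serpin spot was saturated. Outside the family, 6 probes had a serpin description under another gene name, and only AK046232 is given here. All 54 gene names matched a RefSeq symbol, and 63 of 73 probes also by accession. Serpin probes past the threshold are given in full and other tested genes with their change; of related lists, up to 4 called genes with the largest change are named, besides Plat, C1s, Prss8, Plau and Plaur, added after their values were seen. A few genes, which stay in all counts, are not reported here by name. The members and lists were chosen with earlier results of these data known. The number of arrays limits the precision. Same-numbered replicates were not paired: their deviations correlated at -0.29, 0.12 and 0.03. Alternatives covered background correction, scaling, the filter on dim probes, 1 probe per gene, slide, replicate number, the variance model, the deposited table and each array left out.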

Additional observations from a re-analysis of the deposited data

How the results depend on the processing

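No called serpin probe changed direction under any of the 19 alternatives. The second Serpinb2 probe had a value in 17 of them and the second Serpinf1 probe in 18. In many of these the direction could not change. Altering the filter, 1 probe per gene, the replicate block, the variance model and the deposited table kept the same log2 change. Slide as a block and slide 1 alone shared a single change. The call of a serpin did not depend on normexp correction or the deposited table. The 11 called serpin probes became 7 with slide as a block and 0 with slide 1 alone, where limma has 1 BRG1 siRNA array, assumed to vary like the 3 controls; there 13 serpin probes, 11 of them lower, had an unadjusted p under 0.05 (7716 of all probes). Leaving out 1 array gave 8 to 11 serpin probes. Over all probes the 5154 calls became 2031 with median scaling, 1856 with no filter on dim probes, 1267 with slide as a block, 0 with slide 1 alone, 2150 with the replicate block and 1655 to 5709 without 1 array. The 3 Smarca4 probes became 1 with slide as a block, 0 with slide 1 alone and 1 where each gene name had 1 probe, by construction; 2 passed with spike-in scaling, and all 3 when any 1 array was left out. The 24 calls in the related lists became 14 with median scaling, 10 with no filter, 7 with slide as a block, 0 with slide 1 alone, 11 with the replicate block and 7 to 23 without 1 array. Slide 1 alone has fewer arrays, and the cause of the other shifts was not tested. The replicate block ended the call of Serpinb6a and of no other serpin probe. The share of rises among all called probes was 43.8%, and 86.2% with spike-in scaling. Dim probes limit the size of a change: the second Serpinb2 probe ranged from -1.05 to -0.34.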

Other observations

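Several untested probes were bright on 1 or 2 arrays only. The second Serpinb6a probe had 335 on BRG1 siRNA replicate 3 and 341 on control replicate 1, and 8.70 and 12.3 on the other BRG1 siRNA arrays and 30.3 and 8.68 on the other controls. The second Serpinb8 probe had 202 on BRG1 siRNA replicate 2 and at most 14.3 on every other array. One Serpina4-ps1 probe had 213 on BRG1 siRNA replicate 1, where the probe that shares 31 of its 60 bases had 9.36.

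Serpinb9g, of the granzyme B inhibitor group, had a probe with 42.0, 46.2 and 48.5 on the BRG1 siRNA arrays against 24.8, 28.7 and 23.6 on the controls. It was well above background on 1 of 3 BRG1 siRNA arrays and no control array, so it was not tested; with no filter on dim probes it changed by 0.87 ± 0.10 (SE, limma adjusted p = 0.0236), and it was chosen after its values were seen. The other Serpinb9g probe had 69.1, 56.3 and 55.0 on the BRG1 siRNA arrays against 51.0, 26.2 and 38.7 on the controls. The nearest serpin probe to the first, that of Serpinb9d, matched it at 44 of 59 aligned bases and was above background on no array. The Serpinb9e probe matched it at 38 of 50 aligned bases and was well above background on all 6 arrays. Whether RNA of a relative adds to the signal of the first probe was not tested.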
